A study of Mus musculus with 6 samples.

Results

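The genes of cholesterol synthesis and lipogenesis were followed in liver tumors of Prmt3f/f mice and of Prmt3LKO mice. The members are 34 genes chosen by name, of the 34745 genes in the expression table, and all 34 were found and passed the filter on low counts. They were read in 2 arms. The sterol arm holds 20 genes, the targets and controls of SREBP2, and the fatty acid arm holds 14 genes, those of SREBP1 and the making of long-chain fatty acids. RNA was sequenced from 3 tumors of each genotype, and every tumor was 1 library. Tumors had been induced in male mice of both groups with diethylnitrosamine (DEN, 25 mg/kg at 2 weeks of age) and carbon tetrachloride (CCl4, 10% in oil, 0.5 ml/kg, 2 injections a week from 6 weeks), and were taken at 26 weeks. Prmt3f/f mice, labelled WT, carry floxed Prmt3 without Cre. Prmt3LKO mice, labelled Prmt3-KO, also carry the Alb-Cre transgene, for a deletion of Prmt3 that the paper calls hepatocyte-specific. Prmt3 in the other cells of the tumor was not measured apart. Whether the tumors of a group came from separate mice is not stated in the labels, so p-values measure the spread between these tumors.

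Cholesterol is built from acetyl-CoA by way of mevalonate and squalene, mostly in the endoplasmic reticulum. When the membrane of the endoplasmic reticulum runs low in sterol, SREBP2 is carried to the Golgi, cut, and sent to the nucleus, where it turns on nearly every enzyme of the route. SREBP1c, the main form of SREBP1 in liver, answers to insulin and drives the enzymes that make fatty acids from citrate. Hepatocytes are a main site of fatty acid synthesis and one of many cell types that make cholesterol, and both routes are often raised in liver cancer.

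The promoters are shown first, because the members of these arms are textbook targets of SREBP, which binds next to the CCAAT-binding factor NF-Y. RefSeq promoter windows (GRCm38.p6, 250 bases before to 50 bases after the start of the gene) matched 28 of the 34 members. CCAAT, read on both strands, was found in 25 of these 28, in all 16 of the sterol arm and in 9 of 12 of the fatty acid arm. The same letters stood in 42.8% of the 10255 tested genes with a window and in 37.4% of all 32851 windows. The sterol element TCACNCCAC was found in 1 member, Hmgcs1, and in 1.24% of all windows. CACGTG was found in 5 members, 7.15% of all windows and 11.5% of the tested genes, and GGGCGG in 21 members, 35.7% of all windows and 66.3% of the tested genes. A match of letters is a description and not a bound site. The 250 bases before the RefSeq start are printed 5′ to 3′ on the strand of the gene for 4 members whose levels are described below. For Idi1 and Msmo1 this start lies inside the locus given below. Part of each of these windows, and all of its marked matches, therefore lie within the locus. Capitals mark TCACNCCAC and CCAAT, the latter also as its reverse complement ATTGG, and in Fasn 2 such matches share bases.
Hmgcs1, chr13:119690101-119690350, plus strand: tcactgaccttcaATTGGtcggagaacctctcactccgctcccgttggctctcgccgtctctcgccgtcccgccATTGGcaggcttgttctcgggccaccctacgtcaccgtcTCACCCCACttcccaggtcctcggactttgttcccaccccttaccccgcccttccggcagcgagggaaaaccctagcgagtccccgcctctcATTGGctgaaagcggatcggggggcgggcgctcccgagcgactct
Idi1, chr13:8885356-8885605, plus strand: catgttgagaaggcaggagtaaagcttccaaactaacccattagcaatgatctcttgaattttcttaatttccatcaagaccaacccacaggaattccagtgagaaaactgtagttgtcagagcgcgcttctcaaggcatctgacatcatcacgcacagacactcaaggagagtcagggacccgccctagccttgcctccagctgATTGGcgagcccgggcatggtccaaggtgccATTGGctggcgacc
Msmo1, chr8:64733579-64733828, minus strand: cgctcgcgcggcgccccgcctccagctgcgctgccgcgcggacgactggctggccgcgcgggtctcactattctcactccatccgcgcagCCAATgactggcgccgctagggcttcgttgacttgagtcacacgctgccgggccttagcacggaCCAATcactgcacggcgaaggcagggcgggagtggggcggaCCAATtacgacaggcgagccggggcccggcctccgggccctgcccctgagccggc
Fasn, chr11:120824548-120824797, minus strand: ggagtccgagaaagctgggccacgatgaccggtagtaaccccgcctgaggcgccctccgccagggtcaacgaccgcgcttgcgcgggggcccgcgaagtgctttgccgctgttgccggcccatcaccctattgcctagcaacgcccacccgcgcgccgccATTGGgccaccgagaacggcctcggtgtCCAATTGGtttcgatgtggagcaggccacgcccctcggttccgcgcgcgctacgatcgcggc
The Hmgcs1 window holds the sterol element once and CCAAT 3 times before the RefSeq start. The other windows hold CCAAT 2 times in Idi1, 3 times in Msmo1 and 3 times in Fasn, and no sterol element of these letters.

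Between 18440244 and 27976598 reads were counted per tumor. Levels are given as CPM, read counts scaled to a common library size after TMM scaling, which evens out the composition of the libraries. Prmt3 itself, the targeted gene, had 6.60, 8.49 and 10.2 CPM in the Prmt3f/f tumors 7, 66 and 71 and 2.80, 2.03 and 3.82 CPM in the Prmt3LKO tumors 92, 93 and 94. The labelled tissue was checked against 12 hepatocyte markers led by Alb, which summed to 174834 to 233950.5 CPM of the total count in Prmt3f/f and 188849 to 210740.4 CPM in Prmt3LKO tumors. Alb makes up most of these sums. Of the 12 genes, 9 had a log2 fold change (Prmt3LKO over Prmt3f/f) above 0 and 3 below, with a median of 0.18, and all 12 had overlapping groups. Prmt3f/f tumor 7 stood apart in its Spp1 level, an osteopontin gene of bile duct and other cells, with 4075 CPM against 185 to 978 CPM in the other tumors. Markers of leukocytes were lower in every Prmt3LKO tumor, where 12 genes summed to 62.5 to 91.6 CPM against 126 to 163 CPM. The 8 macrophage markers summed to 331 to 449 CPM against 484 to 548 CPM, and 10 kidney markers to 8.78 to 13.1 CPM against 3.00 to 4.14 CPM. The part of these cells in the results below was not tested, and in whole tumors more hepatocytes cannot be told apart from more RNA of a gene per hepatocyte.

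Most members had a higher RNA level in the tumors without hepatocyte Prmt3. The paper also measured lipids in DEN-CCl4 tumors, and found no significant difference in triglycerides or total cholesterol between the genotypes. RNA levels are a different measure and do not show how much lipid was made. The log2 fold change, Prmt3LKO over Prmt3f/f, was above 0 in all 20 genes of the sterol arm and in 11 of 14 genes of the fatty acid arm, where 50.1% of the 13892 genes tested were above 0. Its median was 0.43 in the sterol arm and 0.63 in the fatty acid arm, and 0.00037 over all genes tested. Without Prmt3f/f tumor 7 the median of the fatty acid arm was 0.38, and with any other tumor left out it was between 0.55 and 0.80. In 9 sterol genes and 6 fatty acid genes every Prmt3LKO tumor lay above every Prmt3f/f tumor, and in 0 genes of either arm every one lay below. Over all genes tested, 5.56% lay above in this way and 6.6% lay below.
No member passed an adjusted p of 0.05 with edgeR's quasi-likelihood test, nor did any other gene (0% of those tested), and the smallest adjusted p among members was 0.592, for Msmo1. At an unadjusted p under 0.05, 8 of 20 sterol genes and 6 of 14 fatty acid genes were higher and 0 were lower, where 2.2% of all genes tested were higher and 4.37% lower. DESeq2 called 1 gene in each arm as higher, Msmo1 (adjusted p = 0.0421) and Scd1 (adjusted p = 0.0301), while it called 0.101% of all genes as higher. limma-voom called 0 members. The members are regulated together and are not independent of each other, so their counts are not a number of separate observations. Without Prmt3f/f tumor 66 the unadjusted count was 2 sterol and 3 fatty acid genes, and the share of all genes tested that were higher was 1.28% in the same fit. In the sterol arm it was 4 without Prmt3LKO tumor 93, where 2.21% of all genes were higher, and 4 without tumor 94, where 1.70% were higher.

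**Figure D1:**
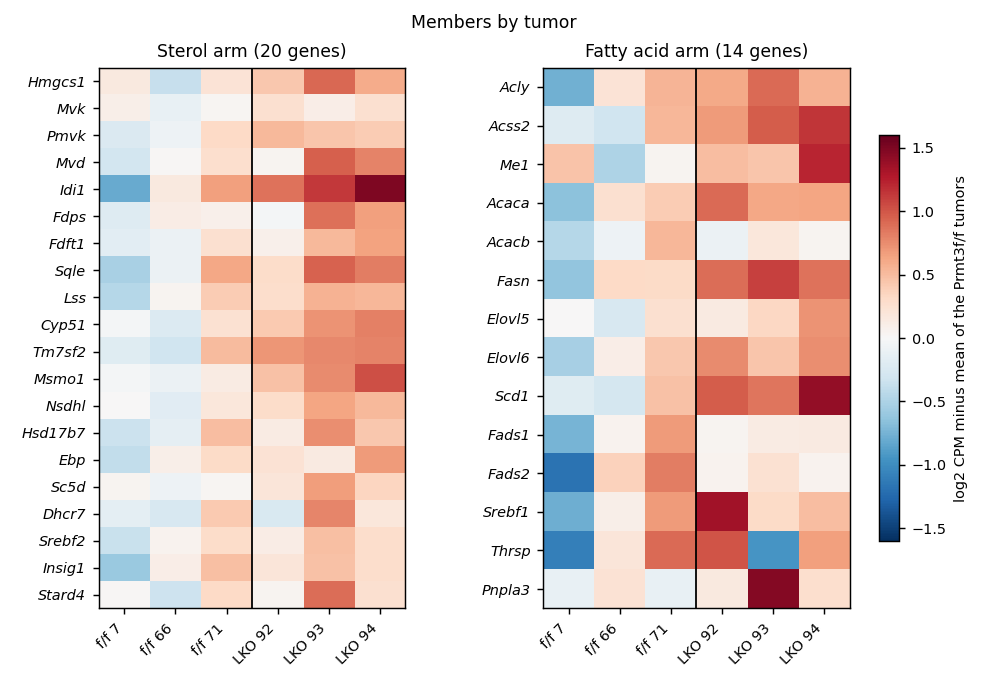
Heat map of the 34 members (rows) in the 6 tumors (columns), as log2 CPM minus the mean of the Prmt3f/f tumors, with the sterol arm on the left and the fatty acid arm on the right. Prmt3LKO tumors are mostly above 0, and the means of Fads1, Fads2 and Acacb are nearly the same in both groups. In the fatty acid arm Prmt3f/f tumor 7 is the bluest column, with the lowest value in 9 of 14 genes.

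The first stage of the sterol arm makes mevalonate and turns it into the isoprene units of sterols. Hmgcs1 (ENSMUSG00000093930, chr13:119690462-119708086, GRCm38), the cytosolic synthase that joins acetyl-CoA units before mevalonate, had 554, 384 and 576 CPM in Prmt3f/f tumors 7, 66 and 71 and 669.8, 938 and 749 CPM in Prmt3LKO tumors 92, 93 and 94. The groups did not overlap, and the log2 fold change was 0.64 (SE 0.23). Idi1 (ENSMUSG00000058258, chr13:8885501-8892451), the isomerase that makes dimethylallyl diphosphate, had 88.4, 172 and 244 CPM in Prmt3f/f and 282, 338 and 437 CPM in Prmt3LKO tumors. Its mean was 168 ± 77.7 CPM in Prmt3f/f and 352 ± 78.7 CPM in Prmt3LKO tumors (SD, n = 3 each), a 2.10-fold difference and the largest of the sterol arm (log2 fold change 1.07, SE 0.36, adjusted p = 0.652 with edgeR).
Pmvk, the phosphomevalonate kinase, had 41.9, 46.6 and 61.3 CPM in Prmt3f/f and 70.9, 67.1 and 65.6 CPM in Prmt3LKO tumors. Its Prmt3LKO values lay close together and above the others, with a log2 fold change of 0.44 (SE 0.17). Mvk, the mevalonate kinase, had 53.5, 46.1 and 51.5 CPM in Prmt3f/f and 60.2, 54.0 and 60.2 CPM in Prmt3LKO tumors, which is the smallest difference of the arm at 0.21 (SE 0.13) on the log2 scale, although the groups did not overlap.
For Mvd and Fdps, which act just before and after Idi1, the groups overlapped through Prmt3LKO tumor 92. Mvd, the mevalonate diphosphate decarboxylase, had 34.9, 43.2 and 51.6 CPM in Prmt3f/f and 44.1, 82.9 and 73.9 CPM in Prmt3LKO tumors (log2 fold change 0.63, SE 0.26). Fdps, which makes farnesyl diphosphate, had 170.0, 213 and 206 CPM in Prmt3f/f and 191, 359 and 308 CPM in Prmt3LKO tumors (log2 fold change 0.54, SE 0.25). For both, tumors 93 and 94 stood well above all Prmt3f/f tumors, and without tumor 93 the log2 fold change of Fdps was 0.35. The locus of Fdps shares its strand with Gm43738, a predicted gene with 8.36% as many reads, so some reads could belong to either.

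From the making of squalene onward the route leads to cholesterol, and all 11 members of this stage had a log2 fold change above 0, with a median of 0.42. Msmo1 (ENSMUSG00000031604, chr8:64718139-64733792), the sterol C4 methyl oxidase, had the smallest p of all members with edgeR, while with DESeq2 Scd1 did. Its level was 114, 109.5 and 129 CPM in Prmt3f/f and 163, 198 and 240.2 CPM in Prmt3LKO tumors. The mean was 117 ± 9.86 CPM in Prmt3f/f and 200.5 ± 38.8 CPM in Prmt3LKO tumors (SD, n = 3 each), a 1.71-fold difference (log2 fold change 0.77, SE 0.18, adjusted p = 0.592 with edgeR). All 6 fits that left out a tumor kept an unadjusted p under 0.05 for Msmo1, between 0.62 and 0.90 on the log2 scale.
Cyp51, the lanosterol demethylase, had 280.4, 245 and 339.7 CPM in Prmt3f/f and 382, 469 and 500.1 CPM in Prmt3LKO tumors. The groups were apart, with a log2 fold change of 0.64 (SE 0.20). Its locus also holds part of Akap9 on the other strand, with 9.28% as many reads. Tm7sf2, a sterol reductase, had 60.5, 55.3 and 98.4 CPM in Prmt3f/f and 112, 118 and 119.6 CPM in Prmt3LKO tumors. The Prmt3LKO tumors were nearly level with each other, and the log2 fold change was 0.71 (SE 0.23). Vps51, on the same strand, overlaps the Tm7sf2 locus with 19.8% as many reads.
Nsdhl, which works with Msmo1 to remove the methyl groups, had 117, 102 and 132 CPM in Prmt3f/f and 142, 180.2 and 166 CPM in Prmt3LKO tumors (log2 fold change 0.48, SE 0.17). Sc5d, the sterol C5 desaturase, had 503, 463 and 501 CPM in Prmt3f/f and 559.5, 776 and 622 CPM in Prmt3LKO tumors (log2 fold change 0.42, SE 0.19). Neither gene had overlapping groups, and Sc5d varied little among Prmt3f/f tumors, with a log2 fold change of 0.27 without Prmt3LKO tumor 93.
Sqle, the squalene epoxidase and a control point of the route, had 129, 174 and 283 CPM in Prmt3f/f and 226, 356 and 326 CPM in Prmt3LKO tumors. Prmt3f/f tumor 71 lay above Prmt3LKO tumor 92, and the log2 fold change of 0.63 (SE 0.31) was 0.40 without tumor 7 and 1.0 without tumor 71. Dhcr7, which makes cholesterol from its last precursor in one branch, had 146, 136 and 217 CPM in Prmt3f/f and 138, 280.4 and 184 CPM in Prmt3LKO tumors. Its difference (log2 fold change 0.27, SE 0.30) rested on Prmt3LKO tumor 93, without which the value was -0.046. The other members of this stage, Fdft1 (squalene synthase), Lss (lanosterol synthase), Hsd17b7 and Ebp, had overlapping groups and log2 fold changes from 0.34 to 0.42. Ctsb, on the other strand, overlaps the Fdft1 locus with 344% as many reads.

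Srebf2, Insig1 and Stard4, grouped here as the controls of the sterol arm, all had overlapping groups. The name is a grouping, and Stard4 is a carrier and not a regulator. Srebf2, which encodes SREBP2, had 60.8, 81.5 and 96.0 CPM in Prmt3f/f and 85.1, 109 and 94.6 CPM in Prmt3LKO tumors (log2 fold change 0.27, SE 0.20, and 0.11 without Prmt3f/f tumor 7). Insig1, which holds the SREBP complex in the endoplasmic reticulum and is itself a target of SREBP, had 228, 371 and 479 CPM in Prmt3f/f and 393, 474 and 419 CPM in Prmt3LKO tumors. Prmt3f/f tumor 71 was the highest of all, and the log2 fold change of 0.25 (SE 0.27) was 0.0028 without Prmt3f/f tumor 7 and 0.52 without tumor 71. Stard4, a carrier of cholesterol between membranes, ranged from 105 to 165 CPM in Prmt3f/f and from 136 to 246 CPM in Prmt3LKO tumors, with a log2 fold change of 0.42 (SE 0.27) that was 0.13 without Prmt3LKO tumor 93. The median of these 3 genes was 0.27, against 0.59 in the mevalonate stage and 0.42 from the making of squalene onward. These medians were not tested against each other.

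**Figure D2:**
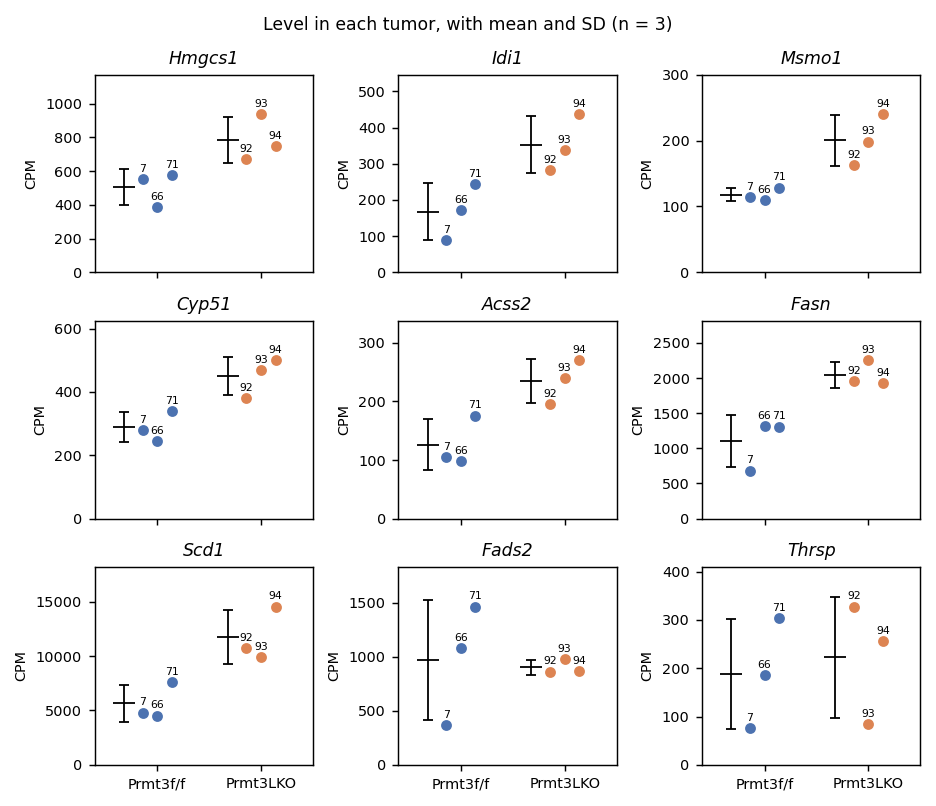
Level of 9 members in each tumor in CPM on a linear axis from 0, with the tumor number beside each point and the group mean and SD (n = 3) to the left of the points. Hmgcs1, Idi1, Msmo1, Cyp51, Acss2, Fasn and Scd1 have groups that do not overlap, whereas in Fads2 the Prmt3LKO tumors lie within the wide range of the Prmt3f/f tumors and in Thrsp tumors 7 and 93 are both low.

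Fatty acid synthesis starts with acetyl-CoA in the cytosol, and the genes that supply it came first among the steps of this arm. Acss2, which makes acetyl-CoA from acetate, had 105, 97.6 and 176 CPM in Prmt3f/f and 196, 239 and 270.4 CPM in Prmt3LKO tumors. The mean was 126 ± 43.2 CPM in Prmt3f/f and 235 ± 37.5 CPM in Prmt3LKO tumors (SD, n = 3 each), a 1.86-fold difference (log2 fold change 0.90, SE 0.26, adjusted p = 0.606 with edgeR), and the unadjusted p was under 0.05 in all 6 fits that left out a tumor. Gss, on the other strand, overlaps the Acss2 locus with 64.1% as many reads.
Acly, the citrate lyase, had 352, 698 and 876 CPM in Prmt3f/f and 909, 1119 and 881 CPM in Prmt3LKO tumors. The groups were apart by a narrow margin, between tumors 71 and 94, and with library size alone they overlapped. Its log2 fold change was 0.59 (SE 0.33), and 0.29 without Prmt3f/f tumor 7. Me1, the malic enzyme that supplies NADPH, had 79.4, 41.0 and 59.9 CPM in Prmt3f/f and 81.7, 78.8 and 136 CPM in Prmt3LKO tumors (log2 fold change 0.72, SE 0.30). Prmt3LKO tumor 94 was the highest for Me1, whose log2 fold change was 0.42 without it, and tumor 7 lay just above tumor 93.

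Fasn (ENSMUSG00000025153, chr11:120805846-120824547), the synthase that builds palmitate, had 683, 1319 and 1307 CPM in Prmt3f/f and 1957, 2253 and 1927 CPM in Prmt3LKO tumors. The groups were far apart, and the mean was 1103 ± 364 CPM in Prmt3f/f and 2045 ± 180.1 CPM in Prmt3LKO tumors (SD, n = 3 each), which is 1.85-fold (log2 fold change 0.89, SE 0.29, adjusted p = 0.648 with edgeR). Without Prmt3f/f tumor 7, the lowest, it was 0.63. The carboxylases that make malonyl-CoA had different values. Acaca, the cytosolic form that feeds synthesis, had 82.2, 155 and 171 CPM in Prmt3f/f and 244, 199 and 199.9 CPM in Prmt3LKO tumors (log2 fold change 0.65, SE 0.28). Without Prmt3f/f tumor 7 it was 0.39, and the unadjusted p was above 0.05. Acacb, the form at mitochondria whose malonyl-CoA restrains the entry of fatty acids, had 52.9, 68.6 and 105 CPM in Prmt3f/f and 67.9, 82.0 and 74.4 CPM in Prmt3LKO tumors. Its log2 fold change was -0.01 (SE 0.25), and the difference between Acaca and Acacb was not tested.

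Scd1 (ENSMUSG00000037071, chr19:44394451-44407709), the desaturase that makes oleate and palmitoleate, was the most abundant member and differed by the most reads. Its level was 4792, 4526 and 7606 CPM in Prmt3f/f and 10745, 9919.8 and 14563 CPM in Prmt3LKO tumors. The mean was 5641 ± 1706 CPM in Prmt3f/f and 11743 ± 2477 CPM in Prmt3LKO tumors (SD, n = 3 each), a 2.08-fold difference (log2 fold change 1.06, SE 0.32, adjusted p = 0.606 with edgeR). The groups did not overlap, and the log2 fold change was between 0.87 and 1.33 with any 1 tumor left out. Scd1 alone took 0.493%, 0.442% and 0.773% of all reads in Prmt3f/f and 1.02%, 1.03% and 1.44% in Prmt3LKO tumors. The 34 members together took 1.12% to 1.88% of the reads in Prmt3f/f and 2.04% to 2.62% in Prmt3LKO tumors. Without Scd1 these ranges overlapped, from 0.622% to 1.10% and from 1.02% to 1.31%. Scd2, a close copy of Scd1 and not a member, was also higher in every Prmt3LKO tumor, with 295, 251 and 259 CPM against 381, 494 and 334 CPM (log2 fold change 0.59, SE 0.20). Reads could be shared between these copies, of which Scd2 is much the smaller. The part of such sharing in the Scd2 difference was not tested.
Elovl6, which lengthens palmitate to stearate, had 99.0, 154 and 194 CPM in Prmt3f/f and 242, 196 and 239.8 CPM in Prmt3LKO tumors (log2 fold change 0.60, SE 0.25). The gap between tumors 71 and 93 was small, and without Prmt3f/f tumor 7 the value was 0.37, with an unadjusted p above 0.05. Elovl5, which lengthens polyunsaturated fatty acids, ranged from 429 to 616 CPM in Prmt3f/f and from 567 to 846 CPM in Prmt3LKO tumors, with a log2 fold change of 0.40 (SE 0.23) that was 0.22 without Prmt3LKO tumor 94.
Fads1 and Fads2, the desaturases of polyunsaturated fatty acids, lie close together on chromosome 19 and had log2 fold changes near 0. Fads2 had 365, 1077 and 1464 CPM in Prmt3f/f and 863, 981 and 865 CPM in Prmt3LKO tumors, and Fads1 had 389.6, 683 and 1050.4 CPM in Prmt3f/f and 676, 714 and 723 CPM in Prmt3LKO tumors. The log2 fold changes were -0.10 (SE 0.44) and -0.01 (SE 0.33), and they took the other sign without Prmt3f/f tumor 71. The highest Prmt3f/f tumor had 4.01 times the Fads2 level of the lowest, while among Prmt3LKO tumors this ratio was 1.14. Without Prmt3f/f tumor 7 the log2 fold change of Fads2 was -0.50, with an unadjusted p under 0.05.

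Srebf1, Thrsp and Pnpla3, grouped here as the controls of this arm, had the widest median spread of the steps. The name is a grouping, and Pnpla3 is not a regulator in the sense that Srebf1 is. Srebf1, which encodes SREBP1, had 64.3, 118 and 177 CPM in Prmt3f/f and 279, 136 and 155 CPM in Prmt3LKO tumors (log2 fold change 0.67, SE 0.41). Prmt3LKO tumor 92 was by far the highest, and tumor 71 lay above tumors 93 and 94. Its log2 fold change was 0.28 without tumor 92, 0.36 without tumor 7 and 1.06 without tumor 71. The counts cannot tell the SREBP1a and SREBP1c transcripts of Srebf1 apart. Thrsp, a small protein that promotes lipogenesis and answers to thyroid hormone and feeding, had 76.2, 186 and 304 CPM in Prmt3f/f and 328, 84.4 and 257 CPM in Prmt3LKO tumors. Its within-group SD of 1.03 on the log2 CPM scale was above that of 96.1% of all genes tested, and its log2 fold change of 0.24 (SE 0.59) changed sign without tumor 7 or tumor 92. Pnpla3, a lipid droplet protein, had 15.4, 19.7 and 15.4 CPM in Prmt3f/f and 18.6, 46.6 and 20.1 CPM in Prmt3LKO tumors (log2 fold change 0.76, SE 0.35). The high value of tumor 93 carried this difference, which was 0.20 without it.

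**Figure D3:**
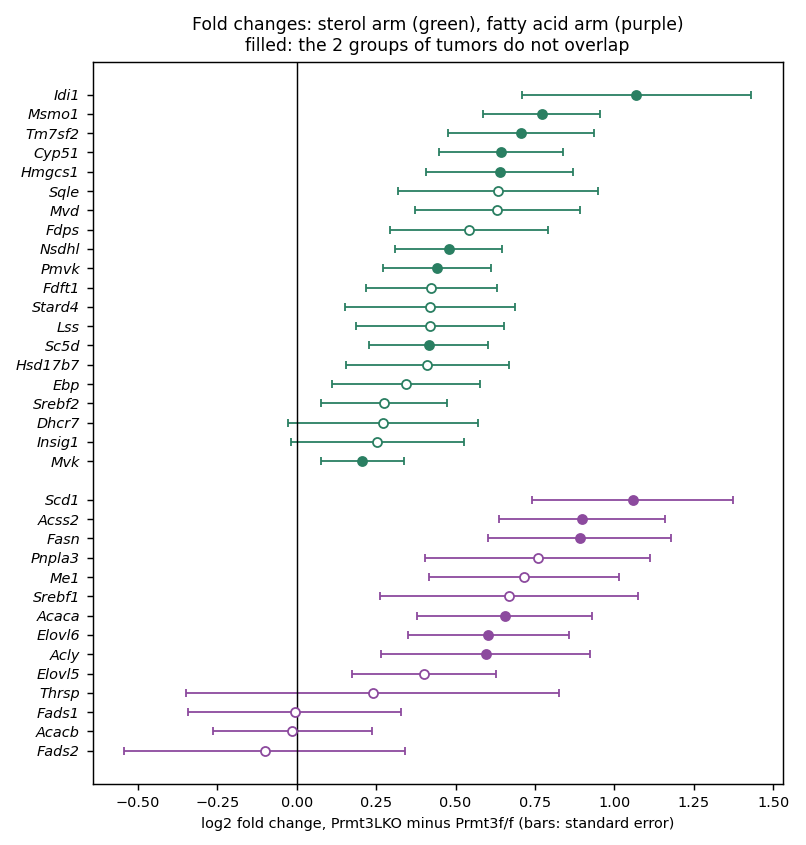
Log2 fold change of each member (Prmt3LKO minus Prmt3f/f, x axis) with its standard error as a bar, ordered within the sterol arm (green) and the fatty acid arm (purple), and filled where the tumors of the 2 groups do not overlap. All sterol genes lie to the right of 0, and Thrsp, Fads1, Acacb and Fads2 lie at the bottom of the fatty acid arm with bars that cross 0.

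The tumors were then compared by arm, as the mean over members of log2 CPM relative to the Prmt3f/f mean. The sterol arm stood at -0.22, -0.090 and 0.31 in Prmt3f/f tumors 7, 66 and 71 and at 0.27, 0.67 and 0.59 in Prmt3LKO tumors 92, 93 and 94. The groups overlapped, as tumor 71 lay above tumor 92. The fatty acid arm stood at -0.49, 0.030 and 0.46 in Prmt3f/f and at 0.57, 0.50 and 0.64 in Prmt3LKO tumors, without overlap but with tumor 71 close to tumor 93.
Among the sterol genes, tumor 7 was the lowest of the 6 tumors in 11 and tumor 66 in 9, so the lowest value was always in a Prmt3f/f tumor. The highest was tumor 93 in 11 genes, tumor 94 in 6, tumor 92 in 2 and tumor 71 in 1. In the fatty acid arm tumor 7 was lowest in 9 of 14 genes, and the highest values were spread over tumor 92 with 4, tumor 93 with 3, tumor 94 with 4 and tumor 71 with 3. The tumor highest in the sterol genes was thus not the highest for Srebf1 or Thrsp, which peaked in tumor 92.
The typical spread within a group was wider than for other genes. The median within-group SD was 0.32 on the log2 CPM scale in the sterol arm and 0.44 in the fatty acid arm, against 0.28 over all genes tested. It was 0.65 for the 3 controls of the fatty acid arm. Mvk was the steadiest member, and 5.72% of the genes tested had a smaller SD.

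**Figure D4:**
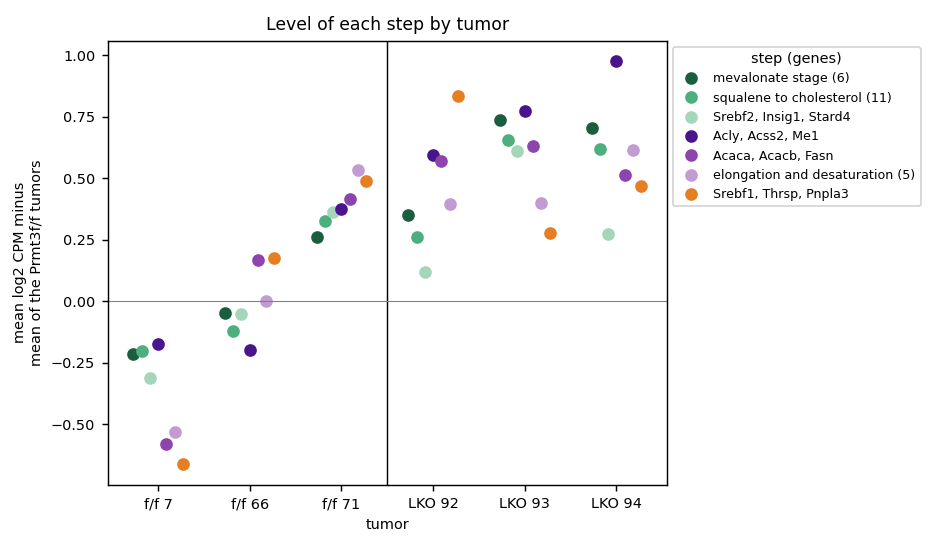
Mean log2 CPM relative to the Prmt3f/f mean (y axis) for the 7 steps of both arms in each tumor (x axis), with a point for each step. Prmt3f/f tumor 7 is lowest in the steps of the fatty acid arm other than Acly, Acss2 and Me1, and all Prmt3LKO points are above 0. Tumor 71 lies above Prmt3LKO tumor 92 in the step from squalene to cholesterol and above tumors 92 and 94 in the sterol controls. It also lies above tumors 92 and 93 in elongation and desaturation and above tumors 93 and 94 in the fatty acid controls.

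Levels of different genes were compared as FPKM, which divides by gene length. Scd1 ranked first in both genotypes, at 1178 FPKM in Prmt3f/f and 2405 FPKM in Prmt3LKO tumors, followed by Fads2 at 645 and 595 FPKM. Of the sterol arm Hmgcs1 was the most abundant, at 158 and 242 FPKM, and Sc5d followed at 145 and 192 FPKM. The lowest were Pnpla3 at 3.65 and 6.18 FPKM and Acacb at 5.83 and 5.70 FPKM. The order of the members was therefore much the same in both groups, with Idi1 moving from rank 15 to 13 and Acss2 from 30 to 26.

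Other genes of these pathways, in 6 lists, are given as a list of steps around the members. Of 78 genes tested, 6 were higher and 2 lower at an unadjusted p under 0.05 with edgeR, with a median log2 fold change of 0.058. Over all genes tested, 2.2% were higher and 4.37% lower at this limit, so the lower genes were no more frequent than among all genes. The 8 genes that carry and cut SREBP, the Scap, Insig2 and site protease genes among them, had 0 genes at this limit and log2 fold changes between -0.13 and 0.23. Of 14 other factors, Pparg, a nuclear receptor that promotes fat storage, was higher with 7.34, 5.04 and 5.52 CPM in Prmt3f/f and 11.6, 15.1 and 9.05 CPM in Prmt3LKO tumors (log2 fold change 1.0, SE 0.25). Sp1 was lower in every Prmt3LKO tumor by a small margin, at 28.1 to 30.0 CPM against 30.0 to 33.1 CPM. Mlxipl, which encodes ChREBP, and Nr1h3, which encodes LXR alpha, were chosen after their values were seen, for their known role, and had log2 fold changes of -0.13 and -0.03.
Of 6 other sterol genes, Acat2 and Aacs were higher at this limit. Acat2, the cytosolic thiolase that precedes Hmgcs1, had 70.0, 56.4 and 88.4 CPM in Prmt3f/f and 109, 104 and 162 CPM in Prmt3LKO tumors (log2 fold change 0.80, SE 0.24). Aacs, which activates acetoacetate for lipid synthesis, had 65.9, 103 and 120.0 CPM in Prmt3f/f and 128, 193 and 174 CPM in Prmt3LKO tumors (log2 fold change 0.78, SE 0.26). Both had groups that did not overlap.
Of 15 genes of sterol handling, Soat1 and Abcg1 were lower at this limit. Soat1, which esterifies cholesterol in macrophages and other cells, ranged from 8.40 to 13.2 CPM in Prmt3f/f and from 5.37 to 8.59 CPM in Prmt3LKO tumors. Abcg1, which exports sterol and is abundant in macrophages, ranged from 16.0 to 19.7 CPM in Prmt3f/f and from 12.2 to 14.1 CPM in Prmt3LKO tumors. The macrophage markers were lower in the same tumors, as given above, and their part in these values was not tested.
Of 20 other fatty acid genes, Scd2 was higher at this limit, and Slc25a1, the carrier that takes citrate out of mitochondria, was just outside it with 184, 163 and 196 CPM against 210.3, 248 and 241 CPM. Of 15 triglyceride genes, Gpam and Dgat1 were higher. Gpam, the first acyltransferase of triglyceride synthesis, had 131, 192 and 270.0 CPM in Prmt3f/f and 361, 512 and 324 CPM in Prmt3LKO tumors (log2 fold change 1.01, SE 0.30). Dgat1, which adds the last acyl chain, had 14.5, 13.8 and 15.3 CPM in Prmt3f/f and 18.1, 22.0 and 22.4 CPM in Prmt3LKO tumors (log2 fold change 0.52, SE 0.15).

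**Figure D5:**
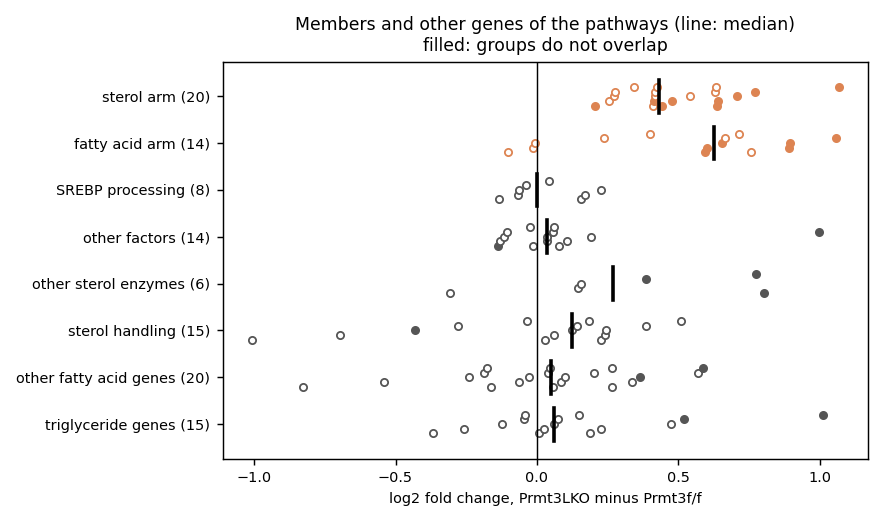
Log2 fold change (Prmt3LKO minus Prmt3f/f, x axis) of each tested gene in both arms and in 6 lists of other pathway genes (rows, with the number of genes), with a line at the median and filled points where the groups do not overlap. The medians of the arms, 0.43 and 0.63, lie to the right of the medians of the other lists, which run from 0.0019 for SREBP processing to 0.27 for other sterol enzymes.

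Fat cells also express many of these genes, so 8 adipocyte markers were read. Adipoq and Lep had 0 counts in every tumor, Retn had 1 count in all and Plin1 2 counts, both in Prmt3LKO tumor 93. The list summed to 22.4 to 31.0 CPM in Prmt3f/f and 26.1 to 43.8 CPM in Prmt3LKO tumors, most of it from Fabp4 and Pparg, which other cells also express. Markers of dividing cells summed to 43.1 to 90.5 CPM and 42.2 to 75.5 CPM, and the groups overlapped.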

How the data were processed

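RNA-seq of 3 Prmt3f/f and 3 Prmt3LKO tumors was read from 1 table, whose 12 columns of values all belong to these tumors. The authors deposited a raw read count and an FPKM value per gene. Per the labels and methods, reads were aligned to GRCm38 with HISAT2 2.0.4, with bcl2fastq 2.19 and StringTie 1.3.0 also listed. The counting tool, annotation release and use of strand are not given in the sources used here, so reads of overlapping genes may be shared. FPKM equals the count over gene length and total count, checked on 8975 genes (largest ratio of implied lengths between tumors 1.0).

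Groups follow the genotype in the labels. Counts were filtered with filterByExpr (minimum count 10, minimum total 15), scaled by TMM and fitted in edgeR 4.0.16 (R 4.3.3), whose quasi-likelihood p-values were adjusted by Benjamini-Hochberg over all 13892 genes tested. SE is the standard error of the log2 fold change. Log2 CPM used a prior count of 2. DESeq2 1.42.0, limma 3.58.1 (voom), other scalings and filters, FPKM with a pseudocount of 1, and each tumor left out were alternatives, and the fits were tested on simulated data. For single members, exact permutation of the 6 tumors (two-sided) gave p = 0.1, the smallest possible with 3 against 3, for each of the 15 members whose groups do not overlap, and at least 0.2 for the others. Members, lists and tests were chosen with earlier results of these data known. Per-tumor values were due for 14 members chosen by role, for any member with an unadjusted p under 0.05 or groups that do not overlap, and for the 3 largest and 3 smallest differences of each arm. Genes of the other lists were named under either of these limits, and the few others that are named were chosen after their values were seen. Depth of 18440244 to 27976598 reads makes counting error small for the members, and 3 tumors per group limit the precision.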

Additional observations from a re-analysis of the deposited data

How the results depend on the processing

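No paired analysis was possible because the groups share no replicate number. DESeq2 called 1 sterol gene and 1 fatty acid gene at an adjusted p under 0.05, where edgeR called 0, and no other alternative called any. With each tumor left out, sterol genes higher at an unadjusted p under 0.05 numbered 2 to 12 (main value 8) and fatty acid genes 3 to 7 (main value 6), with 0 to 1 fatty acid genes lower, where the share of all genes that were higher ranged from 1.28% without Prmt3f/f tumor 66 to 3.99% without tumor 7, while the medians were 0.39 to 0.60 and 0.38 to 0.80. Other scalings, filters and tests kept these counts within 1.5 times. Of the 34 members, 29 kept their sign in all 13 settings and 5 did not. Acacb turned to 0.050 with limma-voom, 0.0095 on FPKM, 0.30 without Prmt3f/f tumor 71 and 0.052 without Prmt3LKO tumor 92. Fads1 turned to 0.12, 0.083, 0.40 and 0.023 in the same settings, and Fads2 to 0.13, 0.092 and 0.33 in the first 3. Thrsp turned to -0.14 without tumor 7 and -0.15 without tumor 92, and Dhcr7 to -0.046 without tumor 93. With each tumor left out, these 5 genes ranged from -0.22 to 0.30 (Acacb), -0.31 to 0.40 (Fads1), -0.50 to 0.33 (Fads2), -0.15 to 0.76 (Thrsp) and -0.046 to 0.51 (Dhcr7). The cause was not tested.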

Other observations

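Feeding and time of day set the level of many of these genes in liver, and the labels give neither for the tumors. Of 6 genes that are high in the fed liver, 0 had groups that did not overlap. Over all genes tested, such groups were found in 5.56% (higher) and 6.6% (lower), so a list of this size says little. Of these 6 genes, 2 had a log2 fold change above 0 and 4 below, with a median of -0.18. At an unadjusted p under 0.05 with edgeR, 2.2% of all genes tested were higher and 4.37% lower. Of 11 genes that are high on fasting, 1 was lower at an unadjusted p under 0.05, Pdk4, with 7.02, 20.1 and 26.2 CPM in Prmt3f/f and 9.32, 8.71 and 8.09 CPM in Prmt3LKO tumors, and the groups overlapped because of tumor 7. The summed level of the fasting list was 3950 to 7681 CPM in Prmt3f/f and 3171 to 5200 CPM in Prmt3LKO tumors. Among 13 tested clock genes 0 reached this limit, and Dbp, whose level swings widely over the day and which was chosen after its values were seen, was at 85.3, 122 and 144 CPM in Prmt3f/f and 128, 122 and 123 CPM in Prmt3LKO tumors. Npas2, too low to be tested, was at 0.211 to 1.29 CPM in Prmt3f/f and 0.101 to 0.171 CPM in Prmt3LKO tumors. The part of feeding and time of day in the levels of the members was not tested.

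Markers of the zones of the liver lobule also varied within groups. The 8 pericentral markers summed to 605 to 1969 CPM in Prmt3f/f and 499 to 1659 CPM in Prmt3LKO tumors, and the 8 periportal markers to 2301 to 6877 CPM and 1781 to 4924 CPM. In both lists tumors 7 and 93 were the lowest of their groups. The 9 stellate cell markers summed to 379 to 908 CPM and 385 to 664 CPM, the 8 endothelial markers to 335 to 420.0 CPM and 351 to 381 CPM, and the 8 bile duct markers to 363 to 4256 CPM and 230 to 359 CPM, most of it from Spp1.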
